A study of Mus musculus with 6 samples.

Results

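The 40 genes described here encode the extracellular and cell-surface part of the Wnt pathway. They comprise 18 Wnt ligands, 10 Frizzled receptors and 5 co-receptors (Lrp5, Lrp6, Ror1, Ror2 and Ryk). The others are 4 proteins that set receptor turnover (Rnf43, Znrf3, Lgr4 and Lgr5) and 3 grouped here as secreted inhibitors (Sfrp1, Dkk1 and Dkk3). All these genes were taken by gene symbol from the 21960 genes of the deposited counts, and all 40 symbols were found. RNA-Seq covered TuBo cells, with 3 mock and 3 p140Cap libraries. TuBo is a mouse mammary tumor line that originates from a BALB/c-MMTV-NeuT mouse, in which rat Neu is driven by the MMTV promoter, and that serves as a model of HER2+ BC. Both groups therefore carry the rat Neu transgene. p140Cap cells express, in addition, the adaptor protein p140Cap from a retroviral pBabe-puro vector and are a pool of puromycin-selected clones, each grown from a single cell. The sources used here do not detail how the mock cells were derived, and neither an age nor a time point is given. The labels speak of cell lines in one field and of mice in another, and the samples were read as TuBo cells. The question addressed was which Wnt ligands and receptors TuBo cells transcribe, and which of them differ when p140Cap is expressed.

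Wnt ligands are secreted, lipid-modified glycoproteins that bind Frizzled receptors. Together with the co-receptors Lrp5 or Lrp6 this stabilizes β-Catenin, which then acts with TCF/LEF factors in the nucleus, while Ror and Ryk receptors mostly carry signals that do not need β-Catenin. Frizzled receptors are removed from the membrane by the ubiquitin ligases Rnf43 and Znrf3, R-spondins bound to Lgr receptors block these ligases, secreted Sfrp proteins bind Wnt ligands, and Dkk1 blocks the Lrp co-receptors. In the mammary gland, Wnt signals take part in ductal branching and in the maintenance of stem cells.

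Mock libraries held 33058719 to 75506562 reads on genes and p140Cap libraries 13770385 to 15364850, so that every mock library was deeper. Levels are given as CPM, the reads of a gene scaled by the TMM-adjusted library size. Differences are log2 fold changes of p140Cap against mock from edgeR's quasi-likelihood test, fitted to the 11800 genes with enough reads, with their SE and a p adjusted over all of them by Benjamini-Hochberg. Genes with an adjusted p under 0.05 are called lower or higher. Srcin1, which encodes p140Cap, had 12.8 to 16.6 CPM in the mock libraries and 2244 to 2519 CPM in the p140Cap libraries, as the labels require. In all, 71.1% of the genes tested were called (35.9% lower and 35.2% higher in p140Cap cells). Over all of them the log2 fold change had a median of -0.0015 and a median absolute value of 0.32. A call is thus the rule rather than the exception in this comparison, and the size of a change says more than the call. The summed level of 10 mammary epithelial markers was 6703 to 7218 CPM in mock and 7478 to 7753 CPM in p140Cap libraries, although 1 of them, Krt19, had no more than 9 reads in either group. The 8 fibroblast markers summed to 9.97 to 10.5 and 11.3 to 14.1 CPM, and 5 of 8 had 0 reads (Col1a2, Dcn and Lum included). Most of this sum came from Pdgfra (mean 7.18 CPM in mock and 7.67 CPM in p140Cap libraries), which was not called. The 8 immune markers summed to 2.08 to 2.34 and 3.23 to 4.09 CPM, with 5 of 8 at 0 (among them Ptprc). The 6 endothelial markers summed to 0.210 to 0.503 and 0.477 to 0.735 CPM, with 2 of 6 at 0. Basal or myoepithelial markers, 8 genes, summed to 1.26 to 1.80 and 1.62 to 2.66 CPM. The highest of them was Mylk, with a mean of 0.789 CPM in mock and 1.35 CPM in p140Cap libraries (not called). Krt5 went the other way (mean 0.123 and 0.0220 CPM), as did Krt14 (0.0374 and 0.0220 CPM), both with few reads. Among these markers, Krt7 was called lower (log2 fold change -0.84, adjusted p = 9.45e-10, edgeR) against 5 epithelial markers called higher, and Col1a1 (0.80, adjusted p = 0.000244), Cd68 (0.83, adjusted p = 0.000119) and Pecam1 (1.25, adjusted p = 0.0133) were called higher. The part of these differences in the values below was not tested.

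Of the 40 genes, 33 had at least 1 read in some library and 7 had none, namely Wnt1, Wnt2, Wnt3, Wnt3a, Fzd10, Ror2 and Dkk1. A further 9 had too few reads to be tested. The remaining 24 passed the filter, and 16 of these were called, 9 lower and 7 higher in p140Cap cells. This is 66.7% of the 24, beside 71.1% of all genes tested, with 37.5% lower beside 35.9% and 29.2% higher beside 35.2%. The median log2 fold change of the 24 was -0.17. The groups did not overlap for 17 of these 24 genes (70.8%), beside 73.4% of all genes tested. Only Wnt7b, Wnt9a and Wnt9b changed by at least 1 log2 unit. Of all genes tested, 5.04% were called lower by at least 1 log2 unit, and of these 24 genes Wnt7b and Wnt9a were. In RNA from whole cultures, fewer cells of a type and less RNA per cell cannot be told apart.

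**Figure D1:**
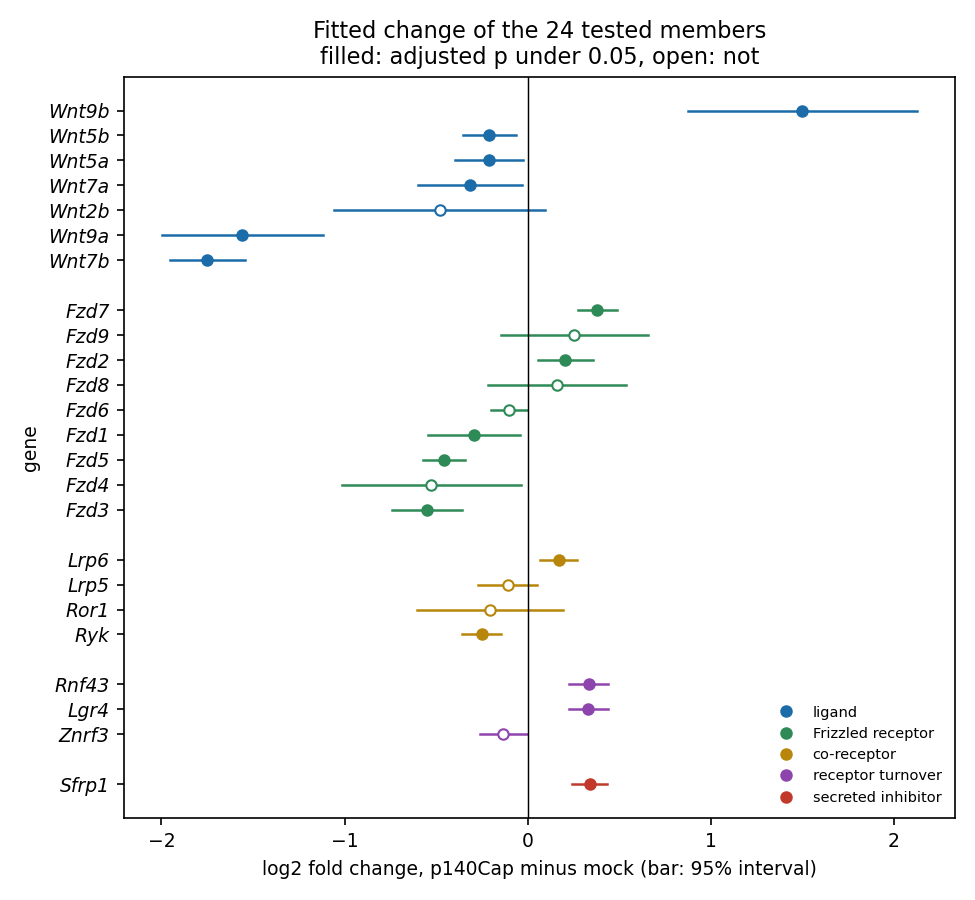
Log2 fold change of p140Cap against mock (x axis) for the 24 tested Wnt ligand, receptor and regulator genes, grouped by role on the y axis, where points are the fitted values, bars their 95% intervals, and filled points genes with an adjusted p under 0.05 (edgeR). Wnt7b (-1.75), Wnt9a (-1.56) and Wnt9b (1.50) lie beyond 1 log2 unit, and the fitted values of all Frizzled, co-receptor, turnover and inhibitor genes lie between -0.55 and 0.38.

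The Wnt genes that were tested were Wnt2b, Wnt5a, Wnt5b, Wnt7a, Wnt7b, Wnt9a and Wnt9b. Of these 7, 5 were lower (71.4%, beside 35.9% of all genes tested), 1 was higher (14.3%, beside 35.2%) and 1 was not called. The lower calls of Wnt5a, Wnt5b and Wnt7a were lost in some of the other processing tried. The largest change was in Wnt7b, a ligand that can signal through β-Catenin (chr15:85535437-85581821, minus strand, GRCm38.p6). Wnt7b had 18.8, 17.4 and 17.4 CPM in the mock libraries and 5.54, 5.72 and 4.70 CPM in the p140Cap libraries. Its levels in the 2 groups were far apart, and the mean fell 3.36-fold, from 17.9 ± 0.824 to 5.32 ± 0.544 CPM (SD, n = 3 each). On the log2 scale the fitted change was -1.75 (SE 0.10, 95% interval -1.95 to -1.55, adjusted p = 1.12e-10, edgeR). It lay between -1.81 and -1.68 in every other processing tried.

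Wnt9a (chr11:59306849-59333552, plus strand) was a rarer transcript, with 200, 103 and 84 reads in mock and 16, 13 and 9 reads in p140Cap libraries. These are 2.61, 2.59 and 2.52 CPM in mock and 1.06, 0.886 and 0.661 CPM in p140Cap cells. The groups did not overlap, and Wnt9a fell 2.95-fold (log2 fold change -1.56, SE 0.21, adjusted p = 4.2e-06, edgeR). Its close relative Wnt9b (chr11:103727362-103775272, minus strand) was the single ligand gene called higher. Wnt9b had 32, 14 and 10 reads in mock and 15, 14 and 17 reads in p140Cap libraries, which after adjustment for depth are 0.418, 0.352 and 0.300 CPM against 0.989, 0.954 and 1.25 CPM. Each p140Cap library was above each mock library, and the level was 2.83-fold higher (log2 fold change 1.50, SE 0.30, 95% interval 0.87 to 2.13, adjusted p = 0.000252, edgeR). No annotated exon of another gene overlaps those of Wnt9a or Wnt9b. Both genes are known for roles in development, Wnt9b above all in the kidney, where it acts through β-Catenin.

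The most abundant ligand transcript was Wnt5b, which, like Wnt5a, is known mostly for signals that do not need β-Catenin. Wnt5b had 54.0, 48.0 and 54.5 CPM in the mock libraries and 44.1, 49.6 and 41.6 CPM in the p140Cap libraries. The groups overlapped, since p140Cap replicate 2 was above mock replicate 2, and the fitted log2 change was -0.21 (SE 0.07, adjusted p = 0.0113, edgeR). The call was lost without mock replicate 1 (-0.18, adjusted p = 0.0527) and without p140Cap replicate 3 (-0.16, adjusted p = 0.0751). Wnt5a had 9.79, 9.40 and 9.55 CPM in mock and 8.04, 8.72 and 8.08 CPM in p140Cap libraries. These groups did not overlap, with a fitted log2 change of -0.21 (SE 0.09, adjusted p = 0.0396, edgeR). Without mock replicate 1, p140Cap replicate 1 or p140Cap replicate 3 the adjusted p of Wnt5a was 0.112, 0.12 and 0.0979, and the fold change stayed between -0.25 and -0.19.

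Wnt7a, a close relative of Wnt7b that is known from limb and female reproductive tract development, had 7.08, 7.92 and 9.88 CPM in the mock libraries and 6.46, 7.08 and 6.02 CPM in the p140Cap libraries. The ranges met, with a fitted log2 change of -0.32 (SE 0.13, adjusted p = 0.0434, edgeR). Without mock replicate 3, its highest library, the value was -0.19 (adjusted p = 0.138), and without p140Cap replicate 1 or p140Cap replicate 3 the adjusted p was 0.0921 and 0.14. Wnt2b, a ligand of the β-Catenin branch, was the tested Wnt gene that was not called. It had 78, 37 and 30 reads in mock and 13, 9 and 8 reads in p140Cap libraries, or 1.02, 0.930 and 0.901 against 0.857, 0.613 and 0.588 CPM. Its groups did not overlap, and its log2 fold change was -0.48 with a 95% interval from -1.06 to 0.10 (adjusted p = 0.124, edgeR).

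**Figure D2:**
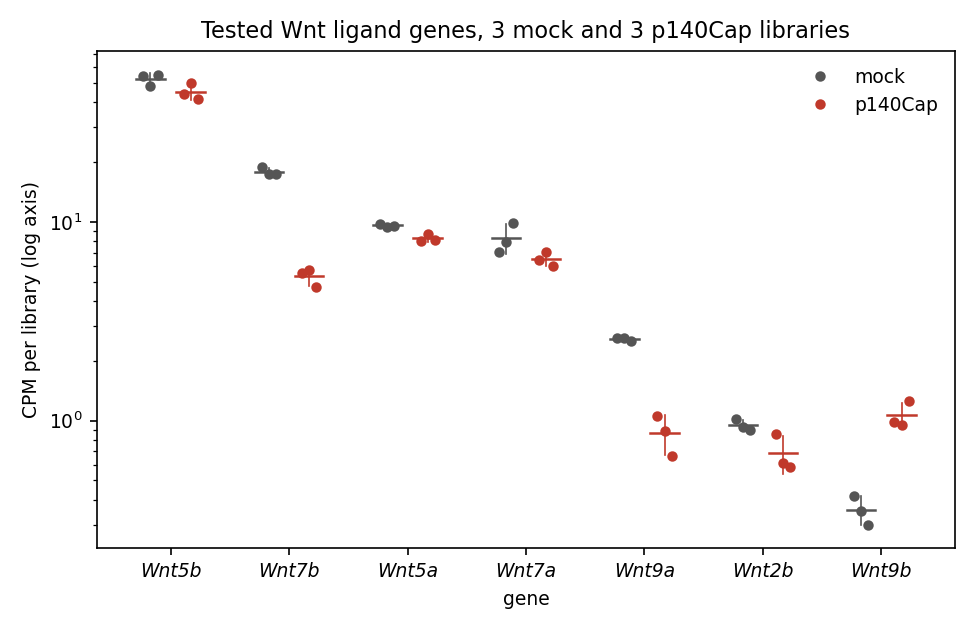
CPM per library (log axis) of the 7 tested Wnt ligand genes in 3 mock (grey) and 3 p140Cap (red) libraries, where points are libraries, horizontal lines group means and vertical lines ± 1 SD. Wnt7b and Wnt9a are lower and Wnt9b is higher in all p140Cap libraries, while the 2 groups lie close together for Wnt5b, Wnt5a, Wnt7a and Wnt2b.

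Per kilobase of annotated exon, which allows genes to be ranked, the order of levels in mock cells was Wnt5b (9.15 ± 0.631 CPM per kb), Wnt7b (3.48 ± 0.161), Wnt7a (2.52 ± 0.436), Wnt5a (1.19 ± 0.0241), Wnt9a (0.658 ± 0.0121), Wnt2b (0.173 ± 0.0112) and Wnt9b (0.0788 ± 0.0131; SD, n = 3), with no overlap between neighbours. In p140Cap cells the order was Wnt5b (7.91 ± 0.719 CPM per kb), Wnt7a (1.98 ± 0.162), Wnt7b (1.04 ± 0.106), Wnt5a (1.03 ± 0.0474), Wnt9b (0.235 ± 0.0356), Wnt9a (0.222 ± 0.0505) and Wnt2b (0.125 ± 0.0270; SD, n = 3). There, Wnt7b overlapped with Wnt5a, and Wnt9b with Wnt9a. The length joins the exons of all annotated transcripts of a gene, so that ranks and shares between genes depend on the annotation. The summed level of the 18 ligand genes was 17.3 ± 0.868 CPM per kb in mock and 12.5 ± 1.01 CPM per kb in p140Cap cells. Within that sum the share of Wnt7b was 20.2% ± 1.22 in mock and 8.26% ± 0.392 in p140Cap cells, and the share of Wnt5b was 52.9% ± 1.26 and 63.0% ± 0.889 (SD, n = 3). Wnt9a made up 3.82% ± 0.238 and 1.76% ± 0.365, and Wnt9b 0.457% ± 0.0816 and 1.90% ± 0.432. The share of Wnt7a was 14.6% ± 2.18 and 15.8% ± 0.0263, and that of Wnt5a 6.91% ± 0.291 and 8.23% ± 0.382. These shares describe the make-up of the ligand transcripts and were not tested, and shares of a sum rise when another gene's share falls.

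The other ligand genes with reads were near the limit of detection. Wnt11 had 7 reads over all 6 libraries, Wnt16 had 7, Wnt4 had 6, Wnt10a had 3, and Wnt6, Wnt8b and Wnt10b had 1 each. Apart from 1 read of Wnt16, all of these reads came from mock libraries. At the mock level, no more than 2.03 reads would have been expected in the 3 p140Cap libraries together for any of these genes or for Lgr5 and Dkk3, so that a lower level in p140Cap cells was not detectable at this depth. When the filter on low counts was left out, none of these 9 genes was called (adjusted p from 0.194 to 0.71, edgeR), and 0 of 9 had an unadjusted p under 0.05 with edgeR or DESeq2, which gave none of them an adjusted p. For a gene with 0 reads, a limit of 3 reads allows a level of up to 0.0392 to 0.0901 CPM in the mock libraries and up to 0.198 to 0.220 CPM in the p140Cap libraries (counting error only). Wnt1, the ligand gene known as an integration site of MMTV, and Wnt3a, the ligand most used to activate β-Catenin in culture, were at 0 reads in all 6 libraries.

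Stretches before RefSeq transcript starts were read (GRCm38.p6) for TCF/LEF motifs, the letters bound by the nuclear partners of β-Catenin, since some Wnt pathway genes are themselves known targets of the pathway. Of the 40 genes, 27 had at least 1 start in the table, with 31 starts in all, and 13 genes, among them Wnt7b, Lrp6 and Sfrp1, had none. The motif CTTTGAT or CTTTGAA, on either strand, was found in the 250 bases before 3 of these 31 starts, 1 of the 3 starts of Wnt5b and 1 of the 2 of Wnt11 (both inside the annotated gene) and the start of Dkk1, and in 7.48% of all 32851 starts. The median GC content was 68% for the 31 stretches and 52.4% for all. The matches are shown, with the motif in capitals, since Wnt5b was the most abundant ligand transcript while Wnt11 and Dkk1 had few reads or none. They lie at chr6:119449439-119449468 (minus strand, 71 bases before the start), chr7:98835050-98835079 (plus strand, 51 bases) and chr19:30549595-30549624 (minus strand, 117 bases), and are written 5′ to 3′ on the gene's strand.
Wnt5b: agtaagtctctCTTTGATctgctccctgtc
Wnt11: gacgtgggcggATCAAAGcgacggtccgcg
Dkk1: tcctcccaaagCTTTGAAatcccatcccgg
A match is a description of these letters and not a binding site.

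Of the 10 Frizzled genes, 9 were tested, of which 3 were lower, 2 were higher and 4 were not called. This is 33.3% lower, beside 35.9% of all genes tested, and 22.2% higher, beside 35.2%. Fzd7, a receptor linked to mammary stem cells (chr1:59482147-59486955, plus strand), was the most abundant and rose the most among those called. Fzd7 had 203.5, 203.4 and 209.8 CPM in the mock libraries and 260.3, 284.1 and 258.5 CPM in the p140Cap libraries. All p140Cap libraries were above all mock libraries, and the mean rose from 205.5 ± 3.69 to 267.6 ± 14.3 CPM (SD, n = 3 each), a 1.30-fold difference (log2 fold change 0.38, SE 0.05, adjusted p = 3.08e-06, edgeR). Fzd2, a receptor of the Wnt5a branch, had 29.7, 28.3 and 30.9 CPM in mock and 33.0, 38.1 and 31.2 CPM in p140Cap libraries. The groups came close without overlap, with a fitted log2 change of 0.21 (SE 0.07, adjusted p = 0.0159, edgeR). Without p140Cap replicate 2, the highest library, it was 0.12 (adjusted p = 0.144).

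Fzd5, known for its part in intestinal Paneth cells and in the eye (chr1:64730558-64737750, minus strand), was lower. It had 103.4, 98.7 and 103.3 CPM in the mock libraries and 73.1, 79.8 and 69.5 CPM in the p140Cap libraries. No values overlapped, and the mean fell 1.37-fold, from 101.8 ± 2.65 to 74.1 ± 5.22 CPM (SD, n = 3 each; log2 fold change -0.46, SE 0.05, adjusted p = 1.22e-06, edgeR). Fzd3, which acts with planar cell polarity proteins in axon guidance, had 20.1, 17.9 and 17.8 CPM in mock and 11.2, 14.2 and 13.0 CPM in p140Cap libraries. All p140Cap libraries were below all mock libraries, and the fitted log2 change of -0.55 (SE 0.09, adjusted p = 3.88e-05, edgeR) was the lowest of the Frizzled genes. Fzd1, a receptor of the β-Catenin branch, had 5.29, 5.31 and 5.14 CPM in mock and 3.82, 4.36 and 4.70 CPM in p140Cap libraries. Its groups did not overlap, with a fitted log2 change of -0.29 (SE 0.12, adjusted p = 0.0345, edgeR). Its call was lost when mock replicate 1, mock replicate 2, p140Cap replicate 1 or p140Cap replicate 2 was left out (adjusted p of 0.0817, 0.061, 0.175 and 0.0611), with values from -0.36 to -0.22 over all libraries left out.

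Fzd6, a planar cell polarity receptor known from hair patterning, was the second most abundant, with 109.7, 112.2 and 104.4 CPM in mock and 101.9, 101.7 and 100.5 CPM in p140Cap libraries. Its groups did not overlap, but the difference was small and was not called (log2 fold change -0.10, SE 0.05, 95% interval -0.20 to -0.0014, adjusted p = 0.0649, edgeR), whereas it was without mock replicate 3 (-0.14, adjusted p = 0.0201). Fzd4, the Norrin receptor of retinal vessels, had 1.75, 1.89 and 1.62 CPM in mock and 1.71, 0.886 and 1.03 CPM in p140Cap libraries. Here p140Cap replicate 1 was at the mock level and the other two were below it, with a fitted log2 change of -0.53 (SE 0.23, adjusted p = 0.0507, edgeR) that was -0.88 without that library (adjusted p = 0.00794) and -0.34 without p140Cap replicate 2 (adjusted p = 0.245). Fzd8, a receptor that binds Wnt ligands with high affinity, had 3.06, 3.60 and 4.17 CPM in mock and 4.88, 2.86 and 4.04 CPM in p140Cap libraries. The ranges overlapped widely, with a log2 fold change of 0.16 (95% interval -0.21 to 0.53, adjusted p = 0.429, edgeR) that turned to -0.039 without p140Cap replicate 1, and was 0.021 without mock replicate 1, 0.26 without mock replicate 3 and 0.35 without p140Cap replicate 2. Fzd9, known from bone and hippocampus, had 2.52, 1.69 and 2.52 CPM in mock and 2.97, 2.45 and 2.72 CPM in p140Cap libraries, which also overlapped (log2 fold change 0.25, 95% interval -0.15 to 0.66, adjusted p = 0.239, edgeR), with values from 0.10 without mock replicate 2 to 0.38 without mock replicate 1.

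**Figure D3:**
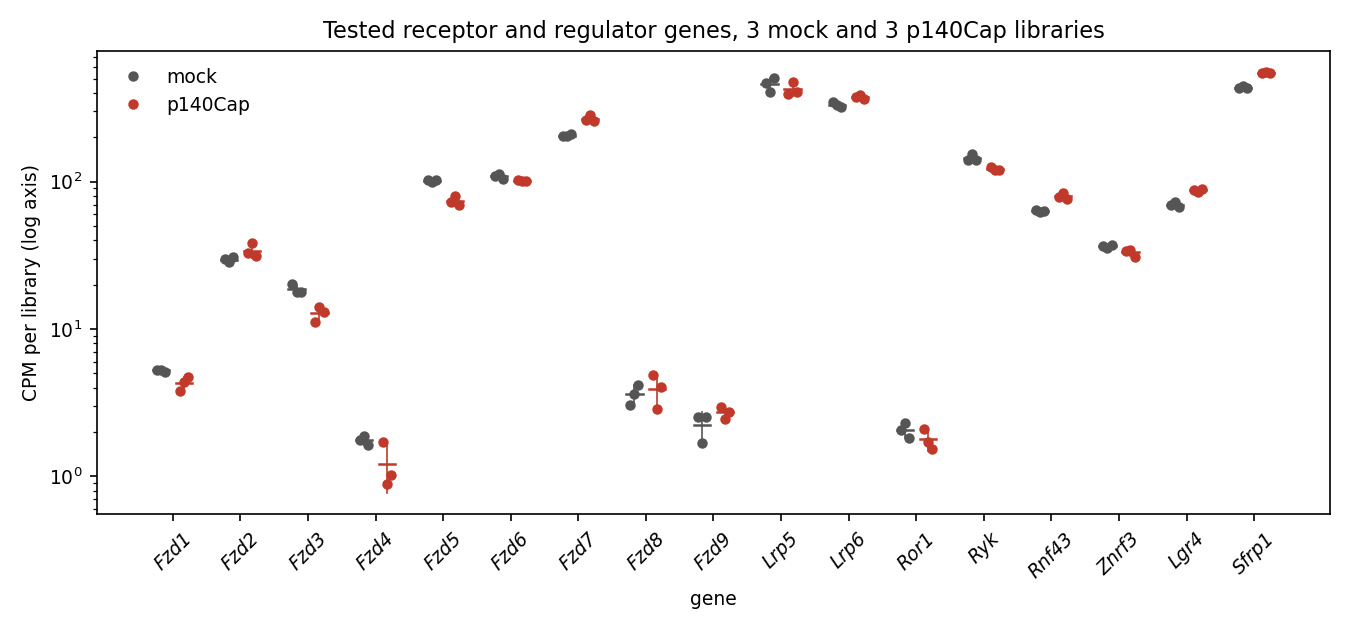
CPM per library (log axis) of the 17 tested receptor, co-receptor, turnover and inhibitor genes in 3 mock (grey) and 3 p140Cap (red) libraries, where points are libraries, horizontal lines group means and vertical lines ± 1 SD. Fzd2, Fzd7, Lrp6, Rnf43, Lgr4 and Sfrp1 lie higher in all p140Cap libraries. Fzd1, Fzd3, Fzd5, Fzd6, Ryk and Znrf3 lie lower in all of them, though Fzd6 and Znrf3 were not called. Fzd4, Fzd8, Fzd9, Lrp5 and Ror1 overlap.

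Per kilobase of exon, Fzd7 led in both groups with 35.0 ± 0.630 and 45.6 ± 2.44 CPM per kb (mock and p140Cap; SD, n = 3 each), followed by Fzd6 (15.9 ± 0.586 and 14.8 ± 0.112), Fzd5 (14.7 ± 0.382 and 10.7 ± 0.752) and Fzd2 (8.09 ± 0.357 and 9.31 ± 0.971). Neighbours in this order did not overlap in mock cells, whereas the lowest Fzd5 and highest Fzd2 libraries of p140Cap cells did. The other tested Frizzled genes were between 0.256 and 1.41 CPM per kb in mock and between 0.177 and 1.18 CPM per kb in p140Cap cells. Fzd7 made up 44.8% ± 0.526 of the summed Frizzled level in mock and 54.0% ± 0.471 in p140Cap cells, and Fzd5 made up 18.8% ± 0.308 and 12.7% ± 0.313 (SD, n = 3). The share of Fzd6 was 20.3% ± 0.960 and 17.5% ± 0.747. The sum itself was 78.1 ± 0.855 CPM per kb in mock and 84.4 ± 4.00 CPM per kb in p140Cap cells. These shares were not tested.

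**Figure D4:**
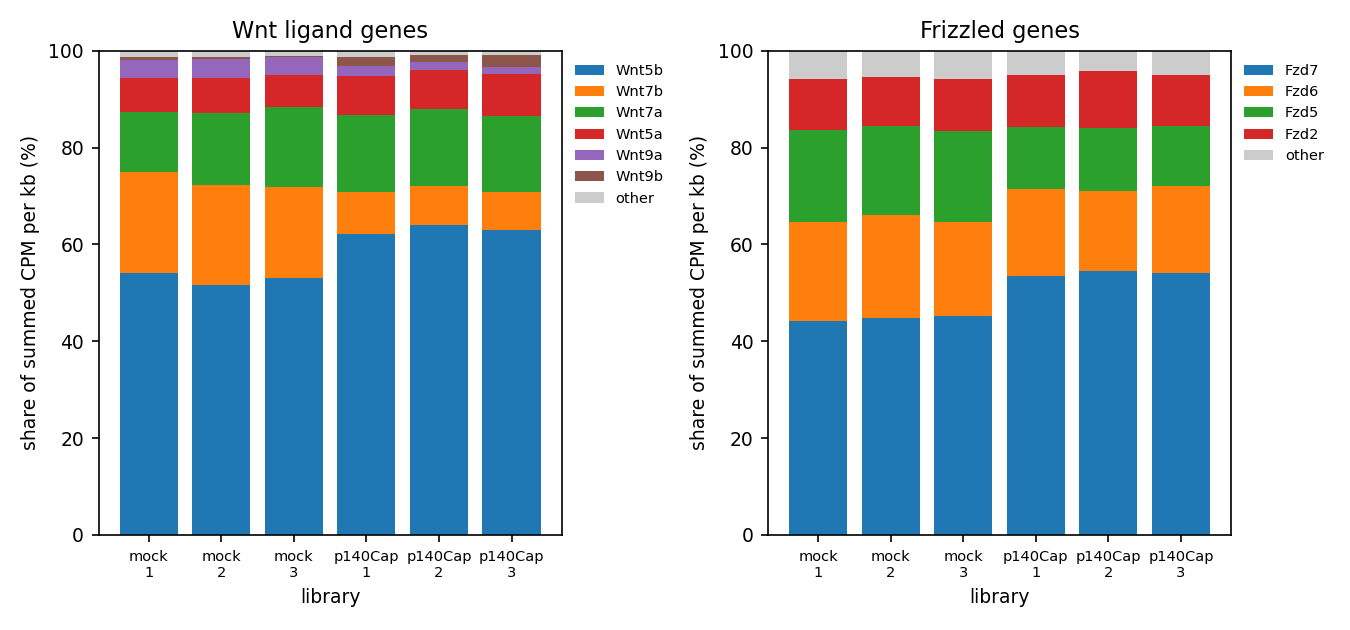
Share of each gene (y axis, %) in the summed CPM per kb of the Wnt ligand genes (left) and the Frizzled genes (right), with 1 stacked bar per library for 3 mock and 3 p140Cap libraries and the rarer genes joined as other. In p140Cap cells Wnt7b takes 8.26% of the ligand sum against 20.2% in mock cells, and Fzd7 takes 54.0% of the Frizzled sum against 44.8%.

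As examples of called genes with a RefSeq start, Fzd5 (lower) and Fzd7 (higher), from the same family, and Wnt9b, the ligand gene called higher, are shown with the 200 bases from 250 to 51 before a start. The window of Wnt9a is not shown. Like that of Wnt9b, it reaches into the annotated gene. Capitals mark the GC box GGGCGG, read on either strand, so that CCGCCC is the same box on the other strand. This box was present in 20 of the 31 windows of the genes described here (64.5%) and in 24.6% of all windows in the table, while the TCF/LEF motif had 0 matches in the windows shown, so that no marked box overlaps such a match. The windows are chr11:103749872-103750071 (Wnt9b, minus strand, 1 box, 71% GC, at a start inside the annotated gene), chr1:64737801-64738000 (Fzd5, minus strand, 7 boxes, 75% GC) and chr1:59481897-59482096 (Fzd7, plus strand, 4 boxes, 63.5% GC).
Wnt9b: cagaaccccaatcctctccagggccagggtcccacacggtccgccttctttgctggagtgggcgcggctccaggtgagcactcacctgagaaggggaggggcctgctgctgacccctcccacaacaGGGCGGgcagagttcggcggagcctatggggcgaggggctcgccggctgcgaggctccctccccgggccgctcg
Fzd5: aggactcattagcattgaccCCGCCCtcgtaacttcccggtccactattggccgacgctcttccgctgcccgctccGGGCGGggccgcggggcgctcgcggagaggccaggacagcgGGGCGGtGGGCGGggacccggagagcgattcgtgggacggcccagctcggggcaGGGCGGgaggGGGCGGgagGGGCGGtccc
Fzd7: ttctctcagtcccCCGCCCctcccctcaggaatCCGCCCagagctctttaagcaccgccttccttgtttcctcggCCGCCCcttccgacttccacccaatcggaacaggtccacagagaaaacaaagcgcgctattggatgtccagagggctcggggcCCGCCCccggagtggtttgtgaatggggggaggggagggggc
Nothing about a factor follows from these letters.

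Of the 5 co-receptor genes, 4 were tested, of which 1 was higher, 1 was lower and 2 were not called. This is 25% higher, beside 35.2% of all genes tested, and 25% lower, beside 35.9%. Lrp6, which with Lrp5 passes the β-Catenin signal on (chr6:134446476-134566913, minus strand), had 345.6, 331.9 and 322.2 CPM in the mock libraries and 373.2, 388.0 and 363.6 CPM in the p140Cap libraries. All p140Cap libraries were above all mock libraries, with a fitted log2 change of 0.17 (SE 0.05, adjusted p = 0.0048, edgeR). Lrp5 (chr19:3584825-3686585, minus strand) had 467.1, 403.1 and 504.1 CPM in mock and 392.7, 475.6 and 405.1 CPM in p140Cap libraries. The ranges overlapped, and Lrp5 was not called (log2 fold change -0.11, 95% interval -0.27 to 0.05, adjusted p = 0.212, edgeR). Single libraries decided its size. Without mock replicate 2 or p140Cap replicate 2 it was -0.20 (adjusted p = 0.0177 and 0.0153, edgeR), and without mock replicate 3 or p140Cap replicate 1 it was -0.042 and -0.059 (adjusted p = 0.636 and 0.563, edgeR). Lrp5 lies on chromosome 19, whose 424 tested genes had a median log2 fold change of -0.34 with 79.7% below 0, beside a median of 0.011 for the 11334 genes elsewhere. Whether this bears on the value of Lrp5 was not tested.

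Ryk, a Wnt receptor with a kinase-like domain that lacks activity, had 141.1, 153.4 and 141.2 CPM in mock and 126.0, 120.1 and 119.7 CPM in p140Cap libraries. Its groups did not overlap, and it fell with a fitted log2 change of -0.25 (SE 0.05, adjusted p = 0.000274, edgeR). Ror1, a receptor of Wnt5a, had 2.05, 2.31 and 1.83 CPM in mock and 2.11, 1.70 and 1.54 CPM in p140Cap libraries, which overlapped (log2 fold change -0.21, 95% interval -0.61 to 0.19, adjusted p = 0.333, edgeR). With libraries left out it ranged from -0.35 (without p140Cap replicate 1) to -0.12 (without p140Cap replicate 3), and it was -0.14 without mock replicate 2. Its relative Ror2 had no reads. Per kilobase of exon, Lrp5 was the highest co-receptor transcript (46.6 ± 5.20 CPM per kb in mock and 43.2 ± 4.55 in p140Cap cells), before Lrp6 (21.6 ± 0.761 and 24.3 ± 0.797), Ryk (10.7 ± 0.520 and 8.96 ± 0.257) and Ror1 (0.357 ± 0.0416 and 0.308 ± 0.0505; SD, n = 3 each). No neighbours in this order overlapped.

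Both genes of receptor turnover that were called rose (2 of 3 tested, 66.7%, beside 35.2% of all genes tested). Rnf43, which removes Frizzled receptors from the membrane and is itself a target of the pathway (chr11:87663087-87735539, plus strand), had 64.1, 62.3 and 63.4 CPM in the mock libraries and 79.2, 83.4 and 76.5 CPM in the p140Cap libraries. Lgr4, an R-spondin receptor (chr2:109917647-110014257, plus strand), had 69.0, 72.4 and 66.9 CPM in mock and 88.4, 84.7 and 89.0 CPM in p140Cap libraries. For both, all p140Cap libraries were above all mock libraries. The fitted log2 change was 0.33 for Rnf43 (SE 0.05, adjusted p = 1.68e-05, edgeR) and 0.33 for Lgr4 (SE 0.05, adjusted p = 1.84e-05, edgeR). The 2 genes have opposite roles toward Frizzled receptors and were at like levels per kilobase of exon, with 9.63 ± 0.144 and 9.33 ± 0.373 CPM per kb in mock and 12.1 ± 0.536 and 11.7 ± 0.312 CPM per kb in p140Cap cells (SD, n = 3 each), overlapping in both groups. Znrf3, the other ubiquitin ligase, did not follow, with 36.4, 35.7 and 37.2 CPM in mock and 34.1, 34.6 and 30.9 CPM in p140Cap libraries. Its groups did not overlap, and its log2 fold change of -0.13 (SE 0.06, 95% interval -0.26 to -0.0056) was not called (adjusted p = 0.0578, edgeR), whereas it was -0.17 and called without p140Cap replicate 2 (adjusted p = 0.0366) and -0.087 without p140Cap replicate 3 (adjusted p = 0.257). Lgr5, the stem cell marker of the gut, had 1 read over all libraries.

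Among the secreted inhibitors, Sfrp1, which binds Wnt ligands outside the cell (chr8:23411383-23449632, plus strand), was the highest of the 24 tested genes per kilobase of exon. Sfrp1 had 429.2, 446.1 and 429.4 CPM in the mock libraries and 546.9, 556.8 and 544.9 CPM in the p140Cap libraries. The groups were well apart, and the mean rose 1.26-fold, from 434.9 ± 9.68 to 549.6 ± 6.39 CPM (SD, n = 3 each; log2 fold change 0.34, SE 0.05, adjusted p = 4.45e-06, edgeR). Per kilobase of exon these are 90.1 ± 2.01 and 113.9 ± 1.32 CPM per kb. Dkk1 had no reads, and Dkk3 had 2 reads in mock libraries. No annotated exon of another gene overlaps Sfrp1. Among the 24 tested genes, 17 share some exon bases with a gene on the other strand and 0 with a gene on the same strand, and no source used here says whether reads were counted by strand. The longest such stretch named here is 1257 bases of Fzd5, followed by 1244 bases that Wnt5b shares with Fbxl14, and Wnt7b shares 324 bases with AU022754.

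The other genes of the pathway were read from 4 lists that hold 64 further genes. Of these, 38 were tested and 22 were called (57.9%, beside 71.1% of all genes tested), 7 lower and 15 higher, with a median log2 fold change of 0.11. Of 30 other secreted and membrane regulators of Wnt, 13 had no reads and 9 were tested, of which 1 was lower and 4 were higher. Reck, a membrane-anchored protein that with Adgra2 makes cells responsive to Wnt7a and Wnt7b, rose from 7.31 ± 0.893 to 21.4 ± 1.23 CPM (SD, n = 3 each; log2 fold change 1.55, SE 0.09, adjusted p = 2.52e-10, edgeR). Adgra2 had 56 reads in mock and 14 in p140Cap libraries and was not tested. Lgr6, the third Lgr receptor of R-spondins, fell from 18.1 ± 0.572 to 6.62 ± 0.852 CPM (SD, n = 3 each; log2 fold change -1.45, SE 0.09, adjusted p = 7.45e-10, edgeR). Gpc4, a cell-surface glypican that binds Wnt ligands, rose from 114.4 ± 3.49 to 227.4 ± 9.17 CPM (SD, n = 3 each; log2 fold change 0.99, SE 0.05, adjusted p = 3.22e-11, edgeR). The R-spondin genes, named after their values were seen, were at or near 0, with no reads for Rspo1, Rspo2 and Rspo3 and 3 reads for Rspo4. Adgra2 was also named after its values were seen.

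Of 8 genes for the acylation and secretion of Wnt ligands, all were tested, and 5 were higher, 1 was lower and 2 were not called. Among all genes tested, 35.2% were higher and 35.9% were lower. Wls, the carrier that takes Wnt ligands to the cell surface, rose from 137.6 ± 3.12 to 177.0 ± 2.96 CPM (SD, n = 3 each; log2 fold change 0.36, SE 0.05, adjusted p = 1.98e-06, edgeR). Porcn, the acyltransferase that adds their lipid, rose from 8.43 ± 0.337 to 10.9 ± 1.02 CPM (SD, n = 3 each; log2 fold change 0.36, SE 0.09, adjusted p = 0.002, edgeR). Tmed5, a cargo receptor of the early secretory route, fell from 39.4 ± 1.87 to 13.7 ± 2.02 CPM (SD, n = 3 each; log2 fold change -1.53, SE 0.08, adjusted p = 1.12e-10, edgeR).

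Of 20 Dishevelled and planar cell polarity genes, 18 were tested, of which 4 were lower, 5 were higher and 9 were not called. Beside these stand 35.9% lower and 35.2% higher among all genes tested. Prickle3, a cytoplasmic protein of the same system, had 353, 153 and 147 reads in mock and 5, 4 and 2 reads in p140Cap libraries (log2 fold change -4.07, SE 0.27, adjusted p = 9.01e-10, edgeR). Celsr1, an atypical cadherin at the core of planar cell polarity, fell from 36.9 ± 3.69 to 4.64 ± 0.564 CPM (SD, n = 3 each; log2 fold change -3.00, SE 0.11, adjusted p = 1.37e-12, edgeR). Prickle2 rose from 8.39 ± 0.810 to 13.5 ± 0.816 CPM (SD, n = 3 each; log2 fold change 0.68, SE 0.09, adjusted p = 6.75e-06, edgeR). Of 12 Wnt feedback targets, a list that also holds Rnf43, Znrf3, Lgr5 and Dkk1, 4 had no reads and 5 were tested, with 1 lower, 2 higher and 2 not called. The called genes were Tcf7, a nuclear partner of β-Catenin (-0.96, SE 0.09, adjusted p = 5.47e-08, edgeR), Rnf43 (0.33) and Lef1, another such partner (0.30, SE 0.12, adjusted p = 0.0314, edgeR). Axin2, a widely used target gene of the pathway, did not pass the filter on low counts. It had 15, 15 and 15 reads in mock and 0, 2 and 0 reads in p140Cap libraries. Adjusted for depth, the pooled 45 and 2 reads give a mock level of 6.54 times the p140Cap level (95% exact binomial interval 1.71 to 55.6, for counting error alone). The feedback genes that were called, which do not include Axin2, moved in both directions.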

How the data were processed

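RNA-Seq counts of 3 mock and 3 p140Cap TuBo libraries were analysed. Per the paper, stranded TruSeq libraries were sequenced on an Illumina NextSeq instrument and processed with docker4seq, with samples and controls mixed per flow cell. The deposited labels add poly(A) selection. The authors deposited counts, whole numbers of reads for 21960 genes, with no normalization and replicates kept apart. The submitters' processing notes name STAR 2.5, RSEM and mm10 without roles, so estimated counts may have been rounded, and reads shared by near-identical genes may be split. The sources used here do not give the strand setting of the counting.

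Counts were analysed in R 4.3.3 with edgeR 4.0.16 (TMM factors, filterByExpr with a minimum count of 10, quasi-likelihood test with group as the sole term, Benjamini-Hochberg adjustment over 11800 genes, threshold 0.05). SE values were obtained from the log2 fold change and the F statistic (its size over the root of F), and 95% intervals use the degrees of freedom of the fit. The common biological coefficient of variation was 4.57%. Replicate pairs differed by more than sampling noise (mean chi-square 1.75 to 10.7, where noise gives 1), so none was a copy of another. How separate the cultures were is not stated, and p-values set the difference between groups against the spread between these libraries. The p140Cap cells are a pool of selected clones, and the derivation of the mock cells is not detailed. Differences due to p140Cap and differences due to the selection of clones therefore cannot be told apart. An exact permutation test of 3 against 3 cannot go below 0.1 and was not used.

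Exon lengths and overlaps came from GENCODE M39 (GRCm39) by Ensembl identifier, and positions and upstream sequences from RefSeq tables of GRCm38.p6, the assembly called mm10. The 40 genes and the other lists were chosen with earlier results of these data known. All 40 were described. Named from each of the other lists were at most 3 called genes, those that changed most, plus Axin2, with Srcin1 as the check of the labels. Adgra2, the R-spondins and single cell type markers do not follow from this rule and were named once their values were known. Alternatives were RLE factors, DESeq2 1.42.0, limma-voom (limma 3.58.1), no filter on low counts, a stricter filter (10 or more reads per library), a block for the replicate number, thinning to the smallest total, and leaving out each library.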

Additional observations from a re-analysis of the deposited data

How the results depend on the processing

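Of the 16 called genes, 11 kept their direction and call in each of the 13 alternatives that tested them (Wnt7b, Wnt9a, Wnt9b, Fzd3, Fzd5, Fzd7, Lrp6, Ryk, Rnf43, Lgr4 and Sfrp1). Wnt9a was not tested with the stricter filter (10 or more reads in each library). The call was lost in 7 of 13 alternatives for Fzd1 and Wnt5a, in 6 for Wnt7a, in 2 for Wnt5b and in 1 for Fzd2, and the cause was not tested. DESeq2 gave adjusted p of 0.148, 0.151 and 0.0614 for Fzd1, Wnt5a and Wnt7a. Of the 8 genes not called, Fzd4 was called in 5 alternatives, Lrp5 and Znrf3 in 3 each and Fzd6 in 2. Fzd8 changed direction without p140Cap replicate 1, with values from -0.039 to 0.35 over the libraries left out. The number of lower genes was 6 with DESeq2, 7 with limma-voom, 7 after thinning, 10 with RLE factors, 10 with the stricter filter and 13 with no filter, and 6 to 10 with a library left out. The number of higher genes was 7 in these alternatives, apart from 6 without p140Cap replicate 2. With the replicate number as a block, 7 genes were lower, 7 higher and 8034 of all genes called. The numbers did not pair the samples: the deviations of same-numbered libraries correlated at -0.006, -0.25 and -0.054, and 0 of 6 libraries were closest to their own number. Without the filter on low counts the median of all genes moved to -0.06. Depth limits the rare transcripts, above all in the shallower p140Cap libraries.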
